A study of Mus musculus with 8 samples.

Results

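The genes described here are 36 genes that copy DNA and supply its deoxynucleotides. They were chosen by name, as the array probes outside the control set whose gene name is one of the 36, out of 34859 gene names on the array, and 35 of them gave a usable level. Their transcripts were compared between cultured mouse satellite cells, the stem cells of skeletal muscle, with and without overexpressed Hoxa9, a homeobox transcription factor of body axis and limb patterning. The cells came from hindlimb muscle of C57BL/6J mice 3 to 4 months old, were sorted, grown overnight and given lentivirus, and those positive for eGFP were sorted 5 days afterwards. The control group (eGFP, 4 arrays) carried a genomically integrated eGFP cDNA, and the Hoxa9 group (4 arrays) carried Hoxa9 together with eGFP. Both groups were thus cultured, transduced, eGFP-positive cells in growth medium, so neither is a cell straight from muscle, and the sources used here do not name the promoter that drives the integrated cDNA. Arrays are numbered 1 to 4 in each group. Nothing in the labels states that these were cells of different mice, so a p-value here weighs a difference against the spread of these samples, which may be technical.

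Replication starts with licensing, in which the origin recognition complex, Cdc6 and Cdt1 load the ring-shaped Mcm2 to Mcm7 helicase onto DNA before S phase. The helicase is then activated by Cdc45, the GINS complex and Mcm10. Primase and the DNA polymerases copy the strands on a sliding clamp, while ribonucleotide reductase and thymidylate enzymes supply the building blocks. Most of these genes are transcribed around the entry into S phase, many through E2F factors. Satellite cells in growth medium proliferate as myoblasts and leave the cell cycle when they differentiate.

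Levels are log2 array intensities relative to the 75th percentile of the array, so 0 is that percentile and a difference of 1 is 2-fold. Differences are Hoxa9 minus eGFP with n = 4 arrays a group, a standard error (SE) and an adjusted p from limma with Benjamini-Hochberg adjustment over all 27110 genes tested. A gene was called at an adjusted p under 0.05. Between 69.6% and 77.5% of the non-control spots of an array were well above background, and no spot was saturated. With 4 arrays a group, precision is limited throughout. The label check was the Hoxa9 probe at chr6:52175595-52175654 (mm9, minus strand), which read -0.98, -0.71, -0.15 and -0.04 on eGFP arrays 1 to 4 and 5.30, 5.44, 5.48 and 5.81 on Hoxa9 arrays 1 to 4, a difference of 5.98 (SE 0.24, adjusted p = 1.97e-05, limma). The other Hoxa9 probe, at chr6:52174165-52174224, differed by -1.74 (SE 0.15), and the sources used here do not say which probe the transduced cDNA covers.

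Transcripts of the replication machinery were lower when Hoxa9 was overexpressed, and none was called higher. Of the 35 measured members 28 (80%) were called lower, against 7.42% of all genes tested and 8.96% of the 15805 genes whose probe carries a RefSeq mRNA accession. The member list was chosen with earlier results of these data known. No member was among the 7.83% of all genes called higher. At least 2-fold lower were 25 of the called members, against 4.15% of all genes. The 4 Hoxa9 arrays lay wholly below the 4 eGFP arrays in 32 members, against 12.5% of all genes. Each of the 35 differences was below 0, from -2.14 for Cdc6 to -0.50 for Gins3, with a median of -1.41 (2.65-fold lower), where the median of all genes was -0.07 and 2.99% of all genes lay below the members' median. Without eGFP array 2, the members called lower numbered 23 and the genes called lower in all 1293 in place of 2011. In these bulk samples, fewer cells in S phase and less of each RNA per cell cannot be told apart.

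**Figure D1:**
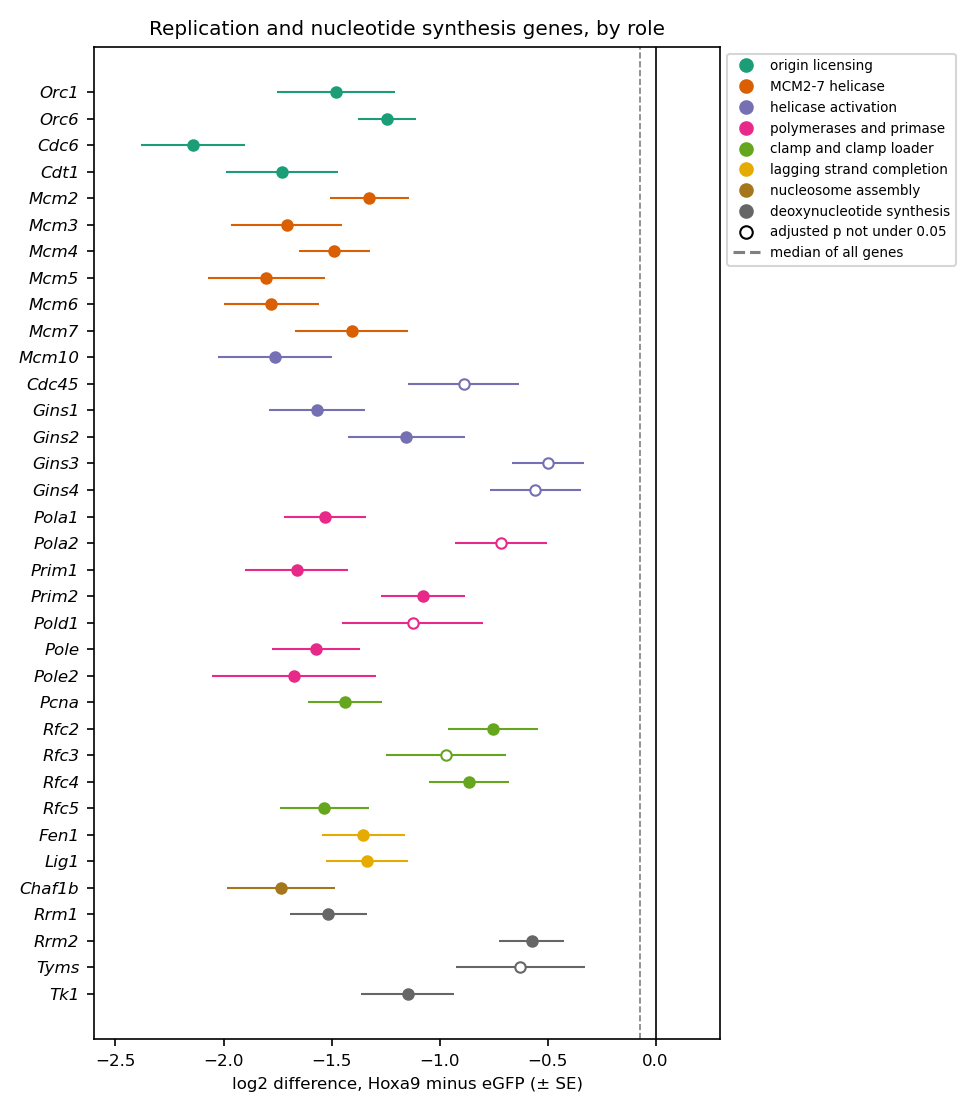
Difference in log2 level, Hoxa9 minus eGFP, of the 35 measured replication and nucleotide synthesis genes, coloured by role, with bars for the SE and n = 4 arrays a group. All 35 points lie left of 0 and left of the dashed median of all genes at -0.07, and the 7 open points are the genes not called.

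**Figure D2:**
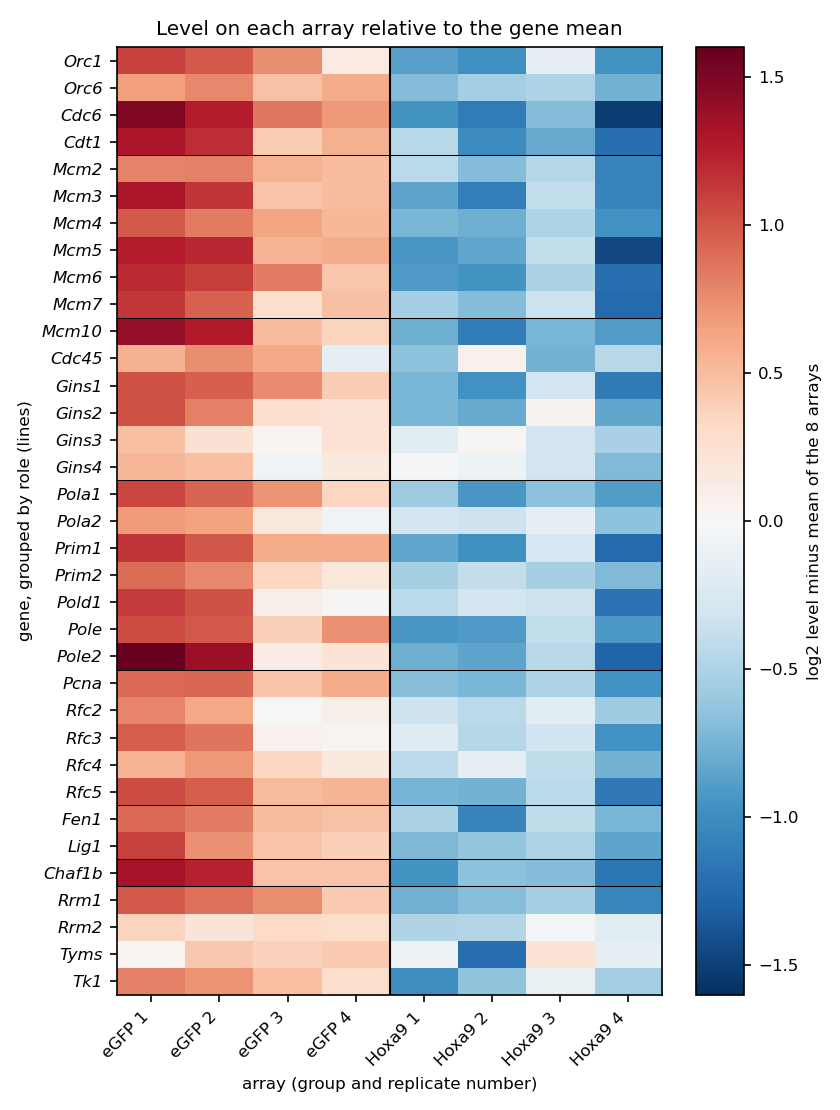
Level of each gene on each array, as log2 minus the gene's mean over the 8 arrays, with red above and blue below that mean. The eGFP columns are red and the Hoxa9 columns blue for nearly every gene, with the palest rows for Gins3, Gins4 and Rrm2.

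All 4 licensing genes fell, with a median difference of -1.6. Cdc6, the loader that brings the helicase to the origin, had the lowest difference among all 35 members. It read 0.26, 0.04, -0.38 and -0.53 on eGFP arrays 1 to 4 and -2.18, -2.34, -1.92 and -2.74 on Hoxa9 arrays 1 to 4, which is 4.42-fold lower (difference -2.14, SE 0.24, adjusted p = 0.00075, limma). Cdt1, its partner in loading, fell by 1.73 (3.32-fold). Orc6, a subunit of the origin recognition complex (probe chr8:87831769-87831828, mm9), read 3.45, 3.57, 3.27 and 3.39 on the eGFP arrays and 2.11, 2.25, 2.31 and 2.04 on the Hoxa9 arrays. Its arrays spread little within each group, with means of 3.42 ± 0.13 (SD, n = 4) and 2.17 ± 0.12, and it had the lowest adjusted p of the licensing genes (difference -1.24, SE 0.14, adjusted p = 0.000647, limma). Orc1, the subunit with the main ATPase of that complex, read -2.48, -2.59, -2.83 and -3.45 against -4.45, -4.56, -3.72 and -4.53. Its Hoxa9 array 3 stood above the other 3, and within slide 3, which held that array, its difference was -0.28 against -1.995 on slide 1 and -1.68 on slide 2. Over all arrays Orc1 fell by 1.48 (SE 0.27, adjusted p = 0.00799, limma), and with normexp background correction by 0.56 (adjusted p = 0.0131).

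The 6 subunits of the helicase ring fell together, and their differences lay in a narrow band from -1.80 for Mcm5 to -1.33 for Mcm2, with a median of -1.6. Mcm4 (probe chr16:15624372-15624431) read 4.80, 4.64, 4.45 and 4.35 on the eGFP arrays and 3.09, 3.03, 3.33 and 2.85 on the Hoxa9 arrays. The lowest eGFP array was 1.02 above the highest Hoxa9 array, and Mcm4 fell 2.80-fold (difference -1.49, SE 0.16, adjusted p = 0.000687, limma). Mcm7 (probe chr5:138605925-138605984) had the highest adjusted p of the ring and read 5.41, 5.22, 4.54 and 4.76 against 3.74, 3.58, 3.94 and 3.04. It fell by 1.41 (SE 0.26, adjusted p = 0.00828, limma), with the slide 1 arrays farthest apart. The others fell by 1.71 (Mcm3) and 1.78 (Mcm6). All 6 were called lower in each of the 20 alternative fits.

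The helicase activation genes lay on both sides of the threshold, and whether their differences differ from each other was not tested. Mcm10, Gins1 and Gins2 were called lower, whereas Cdc45, Gins3 and Gins4 were not, and the median of the 6 was -1.02. Mcm10, an activator of the loaded helicase, fell by 1.76. Gins1 read 1.38, 1.32, 1.11 and 0.77 on the eGFP arrays and -0.37, -0.6, 0.06 and -0.77 on the Hoxa9 arrays, 2.96-fold lower (difference -1.57, SE 0.22, adjusted p = 0.0023, limma). Gins2 fell by 1.15 (SE 0.27, adjusted p = 0.0232, limma). Its call was lost in 7 of the 20 alternative fits, among them those without eGFP array 1 (adjusted p = 0.0593), eGFP array 2 (0.0716) and Hoxa9 array 1, 2 or 4 (0.0657, 0.0508 and 0.0632), with values between -1.10 and -1.01. With the replicate number as a block its adjusted p was 0.0582, and with the slide as a block 0.0703.

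The other 2 subunits of the 4-part GINS complex differed less. Gins3 read 5.40, 5.17, 4.95 and 5.16 on the eGFP arrays and 4.74, 4.93, 4.61 and 4.40 on the Hoxa9 arrays. The groups did not overlap, but the gap between 4.95 and 4.93 was small, and the difference of -0.50 (SE 0.17) had an adjusted p of 0.0863 (limma), with -0.33 under quantile scaling. Gins4 read 2.29, 2.24, 1.70 and 1.91 against 1.74, 1.67, 1.45 and 1.04, with Hoxa9 array 1 above eGFP array 3. Its difference was -0.56 (SE 0.21, adjusted p = 0.126, limma), and within slide 2 it was 0.005. Cdc45, which joins the ring and GINS in the active helicase, read -1.70, -1.53, -1.66 and -2.42 against -2.93, -2.20, -3.03 and -2.71. Hoxa9 array 2 lay above eGFP array 4, and the difference of -0.89 (SE 0.26) had an adjusted p of 0.0528 (limma). It was called without eGFP array 4 (-1.08, adjusted p = 0.0214) and without Hoxa9 array 2 (-1.06, adjusted p = 0.0239), and with normexp background correction it was -0.49 (adjusted p = 0.0939).

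Of the 7 polymerase and primase genes 5 were called lower, and the groups did not overlap in any of the 7 (median -1.53). Pola1, the catalytic subunit of polymerase alpha, which extends the primer (probe chrX:90550189-90550248), read 1.72, 1.58, 1.37 and 0.99 on the eGFP arrays and 0.07, -0.28, -0.01 and -0.24 on the Hoxa9 arrays. It fell 2.89-fold (difference -1.53, SE 0.19, adjusted p = 0.00124, limma). Pola2, the accessory subunit of the same enzyme, read -1.604, -1.64, -2.12 and -2.34 against -2.58, -2.62, -2.42 and -2.94. Its eGFP arrays 3 and 4 were close to the Hoxa9 arrays, and its difference was -0.72 (SE 0.21, adjusted p = 0.057, limma). Without eGFP array 4 it was -0.85 (adjusted p = 0.035), and with the replicate number as a block its adjusted p was 0.0486. The primase subunits both fell, the catalytic Prim1 by 1.66 and the larger Prim2 by 1.08.

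Of polymerase epsilon, the leading strand enzyme, Pole and Pole2 were called lower, while its small subunits Pole3 (-0.54, SE 0.19, adjusted p = 0.102, limma) and Pole4 (-0.26, SE 0.20, adjusted p = 0.437, limma), from the wider list of pathway genes, were not. The other Pole3 probe was called lower in a fit over all probes (-0.57, adjusted p = 0.0479, limma). Pole3 was also called when averaged over its probes (-0.555, adjusted p = 0.0304, limma) and without eGFP array 4 (-0.70, adjusted p = 0.0305). Pole, the catalytic subunit of polymerase epsilon, read 3.15, 3.09, 2.49 and 2.84 on the eGFP arrays and 1.18, 1.20, 1.72 and 1.19 on the Hoxa9 arrays by its highest probe, a difference of -1.57 (SE 0.20, adjusted p = 0.00149, limma). Hoxa9 array 3 stood above the other 3, which were nearly alike. Pole2 fell by 1.67 (SE 0.38, adjusted p = 0.02, limma). It was not called without eGFP array 2 (-1.497, adjusted p = 0.0596), without Hoxa9 array 4 (-1.53, adjusted p = 0.0559) or with the slide as a block (-1.53, adjusted p = 0.0662). Pold1, the catalytic subunit of polymerase delta, which copies the lagging strand, read 3.75, 3.65, 2.73 and 2.65 against 2.21, 2.34, 2.29 and 1.45. Its 2 highest and its lowest array were those of slide 1, where the difference was -2.25, against -0.46 on slide 2 and -0.36 on slide 3. Over all arrays it was -1.12 (SE 0.33, adjusted p = 0.0527, limma), and it was called without eGFP array 4 (-1.30, adjusted p = 0.0444) and in the fit blocked by replicate number (adjusted p = 0.0285).

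Pcna, the sliding clamp that holds the polymerases on DNA, fell 2.71-fold. It read 5.26, 5.27, 4.80 and 4.94 on the eGFP arrays and 3.67, 3.61, 3.85 and 3.37 on the Hoxa9 arrays (probe chr2:132075022-132075054). Every eGFP array lay at least 0.95 above every Hoxa9 array, and the difference was -1.44 (SE 0.17, adjusted p = 0.00101, limma). The small subunits of the clamp loader, replication factor C, spanned a wider range. Rfc5 fell by 1.53 and Rfc4 by 0.86. Rfc2 fell by 0.75 (SE 0.21, adjusted p = 0.0451, limma), and this call was lost in 10 of the 20 alternative fits, which included leaving out eGFP array 1 or 2 or any 1 of the 4 Hoxa9 arrays (adjusted p from 0.0685 to 0.127). With the replicate number or the slide as a block the adjusted p of Rfc2 was 0.0641 or 0.125. The Rfc4 call was lost without eGFP array 2 (-0.78, adjusted p = 0.0515), with the slide as a block (-0.88, adjusted p = 0.051) and with median scaling (-0.89, adjusted p = 0.0592). Rfc3 read 0.67, 0.57, -0.22 and -0.25 on the eGFP arrays and -0.50, -0.74, -0.61 and -1.26 on the Hoxa9 arrays. It was not called (difference -0.97, SE 0.28, adjusted p = 0.0514, limma), although its groups did not overlap. It was called without eGFP array 4 (-1.12, adjusted p = 0.0467) and in the fit blocked by replicate number (adjusted p = 0.0314).

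Both enzymes that finish the lagging strand fell by similar amounts. Fen1, the flap endonuclease that trims displaced primers, read 4.33, 4.24, 3.93 and 3.90 on the eGFP arrays and 2.92, 2.37, 3.02 and 2.69 on the Hoxa9 arrays (difference -1.35, SE 0.19, adjusted p = 0.00217, limma). Lig1, the ligase that seals the fragments, read 4.00, 3.63, 3.36 and 3.29 against 2.18, 2.28, 2.41 and 2.06 (difference -1.34, SE 0.19, adjusted p = 0.00219, limma). In both genes every eGFP array was above every Hoxa9 array.

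Chromatin assembly factor 1, which deposits histones behind the fork, was represented by Chaf1b. It read 4.14, 4.05, 3.27 and 3.28 on the eGFP arrays and 1.86, 2.16, 2.12 and 1.66 on the Hoxa9 arrays, 3.33-fold lower (difference -1.73, SE 0.25, adjusted p = 0.00251, limma). The lowest eGFP array lay 1.11 above the highest Hoxa9 array. The large subunit gene Chaf1a (probe chr17:56206969-56207028) was left out of the 35 because its spot was marked as an outlier on eGFP array 1. On the other arrays it read 2.49, 1.64 and 1.54 (eGFP 2 to 4) and 0.94, 0.56, 0.76 and -0.03 (Hoxa9 1 to 4). With marked spots left out array by array, an alternative chosen after seeing the data, it was 2.52-fold lower (difference -1.33, SE 0.32, adjusted p = 0.0312, limma, n = 3 and 4), which made 29 members called lower.

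Of the 4 deoxynucleotide genes 3 were called lower, with a median of -0.89. Rrm1, the large subunit of ribonucleotide reductase, read 3.86, 3.76, 3.63 and 3.304 on the eGFP arrays and 2.11, 2.20, 2.35 and 1.84 on the Hoxa9 arrays, 2.86-fold lower (difference -1.51, SE 0.18, adjusted p = 0.000935, limma). Rrm2, the small subunit made in S phase, fell by 0.57 (SE 0.15, adjusted p = 0.0352, limma). It read 4.99, 4.84, 4.95 and 4.92 against 4.16, 4.17, 4.61 and 4.46, so the eGFP arrays were close together and the Hoxa9 arrays of slide 2 were the lowest. This call was lost in 12 of the 20 alternative fits. They included leaving out any array but Hoxa9 array 3 (adjusted p from 0.0554 to 0.0996), as well as the replicate number as a block (0.0553) and the slide as a block (0.091).

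Tyms, thymidylate synthase, read -0.67, -0.27, -0.33 and -0.28 on the eGFP arrays and -0.80, -1.92, -0.48 and -0.86 on the Hoxa9 arrays. Hoxa9 array 3 lay above eGFP array 1, and the difference of -0.63 (SE 0.30) was not called (adjusted p = 0.223, limma). Without Hoxa9 array 2 it was -0.33. Tk1, the thymidine kinase of the cytosol, read 3.49, 3.40, 3.16 and 2.96 against 1.69, 2.03, 2.56 and 2.13. Its groups did not overlap, and it fell 2.21-fold (difference -1.15, SE 0.21, adjusted p = 0.00852, limma).

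Different probes of a gene mostly went the same way. In all, 28 of the 35 members had a single probe, and the other 7 had 17 probes, of which 12 were called lower and 2 lay above 0 in a fit over all probes. That fit called 2712 of the 40773 kept probes lower. The paired probes of Cdc6 differed by -2.14 and -2.03, those of Mcm3 by -1.71 and -1.84, and those of Rfc4 by -0.86 and -0.82. For Pole, the probe at chr5:110766375-110766434 differed by -1.57 and that at chr5:110720154-110720213 by -0.84 (adjusted p = 0.0392, limma). The third Pole probe, at chr5:110741964-110742023, read -5.56, -5.30, -4.27 and -4.72 on the eGFP arrays and -5.22, -4.53, -5.24 and -4.44 on the Hoxa9 arrays, with overlapping groups and a difference of 0.11 (SE 0.33, adjusted p = 0.855, limma). Tk1 had probes at chr11:117676845-117676904 (-1.15), at chr11:117683390-117683449 (-1.03, adjusted p = 0.087, limma) and at chr11:117685654-117685713. The last read -5.15, -4.53, -4.59 and -5.67 against -4.57, -3.95, -5.88 and -4.96 (0.14, SE 0.43, adjusted p = 0.854, limma), and it was well above background on 3 arrays of each group. Averaged over its probes Pole differed by -0.77 (adjusted p = 0.00566, limma), and Tk1 was not called (-0.68, adjusted p = 0.0675, limma). The third Chaf1b probe (-1.18, adjusted p = 0.271, limma) and the second Prim2 probe (-0.46, adjusted p = 0.173, limma) were not called.

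**Figure D3:**
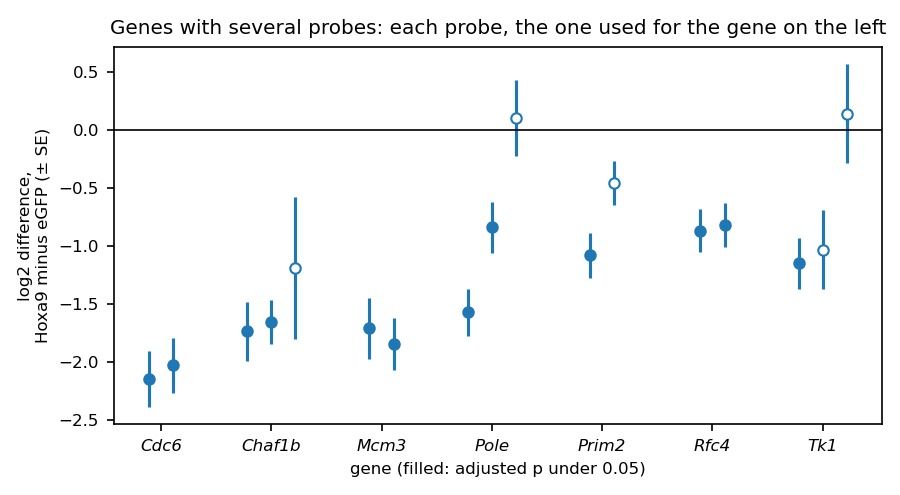
Difference in log2 level, Hoxa9 minus eGFP, with its SE, for each of the 17 probes of the 7 members that have several, with the probe used for the gene on the left and filled points called lower. The third probes of Pole and Tk1 lie above 0, at 0.11 and 0.14.

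The size of the difference moved with the slide. Slide 1 held eGFP arrays 1 and 2 and Hoxa9 array 4, slide 2 held eGFP array 3 and Hoxa9 arrays 1 and 2, and slide 3 held eGFP array 4 and Hoxa9 array 3. The mean level over the 35 members was 2.76 and 2.67 on the eGFP arrays of slide 1 and 2.23 and 2.16 on those of slides 2 and 3. On the Hoxa9 arrays it was 0.89 on slide 1, 1.18 and 1.11 on slide 2 and 1.41 on slide 3. The members' median difference was accordingly -1.89 within slide 1, -1.13 within slide 2 and -0.86 within slide 3, where the medians of all genes were 0.04, -0.03 and -0.11. In 34 of the 35 members the difference was below 0 within every slide, Gins4 being the exception. With the slide as a block 23 members were called lower, and the calls of Gins2, Pole2, Rfc2, Rfc4 and Rrm2 were lost. By replicate number the medians were -1.71, -1.64, -0.90 and -1.25, and all 35 members were below 0 in all 4 pairs. For the 32 members whose groups did not overlap, a difference below 0 in every slide and pair followed from that separation.

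Marker genes of cell types that a satellite cell culture could hold, listed with earlier results of these data known, were read beside these values. The 6 satellite cell and myoblast markers of the labelled cell type, Pax7, Myf5, Myod1, Des, Cdh15 and Chrna1, were well above background on all 8 arrays. Their mean level ran from 3.47 to 3.79 on the eGFP arrays and from 2.55 to 2.91 on the Hoxa9 arrays. Of the 6, 4 were called lower, against 7.42% of all genes, with Pax7 at -1.30 (SE 0.21, adjusted p = 0.00401, limma). Myod1 (-0.23, adjusted p = 0.48, limma) and Des (-0.58, adjusted p = 0.123, limma) were not called. The 6 markers of differentiated muscle ran from 4.25 to 5.70 and from 4.77 to 5.96, with no call. This mean joined genes of opposite direction. Myog (-0.77) and Myh3 (-0.69) differed by values below 0, and Myh8 (1.77), Tnnt3 (0.63), Acta1 (0.49) and Ckm (0.38) by values above 0. The mean of these markers was lowest on the eGFP arrays of slide 1 (4.48 and 4.25), where the replication genes were highest. Within the Hoxa9 group, array 3 was high in both, with 5.65 for these markers against 4.77 and 4.78 on arrays 1 and 2, and array 4, the highest in these markers (5.96), was the lowest in the replication genes. Of the fibroblast list (6 of 6 measured, -0.90 to 0.48 and -0.83 to 1.02) 1 gene was called, Ly6a, which rose by 4.55. Endothelial markers (3 of 5 measured) ran from -1.02 to -0.18 on the eGFP arrays and from -2.14 to -0.68 on the Hoxa9 arrays, with no call, and Tek and Emcn were below the background filter. Blood markers (4 of 5) ran from 0.25 to 0.80 and from 0.33 to 1.12, with no call and with Ptprc below the filter. Single genes lay far from these list means. By group mean, Itgam (5.0 eGFP, 5.0 Hoxa9) and Csf1r lay above 0, and Cd68 and Adgre1 (-5.3 eGFP, -4.4 Hoxa9) below. Of the endothelial genes Kdr lay above 0 (3.5 eGFP, 3.7 Hoxa9), and Pecam1 and Cdh5 below. Smooth muscle and pericyte markers (5 of 5) ran from -2.08 to -1.02 and from -1.64 to -0.40, with Cnn1 called higher and Acta2 lower. Glial markers (3 of 4, S100b below the filter) ran from -1.58 to -1.36 and from -3.00 to -1.57, with no call. The part of the myoblast and differentiation markers in the lower replication transcripts was not tested.

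**Figure D4:**
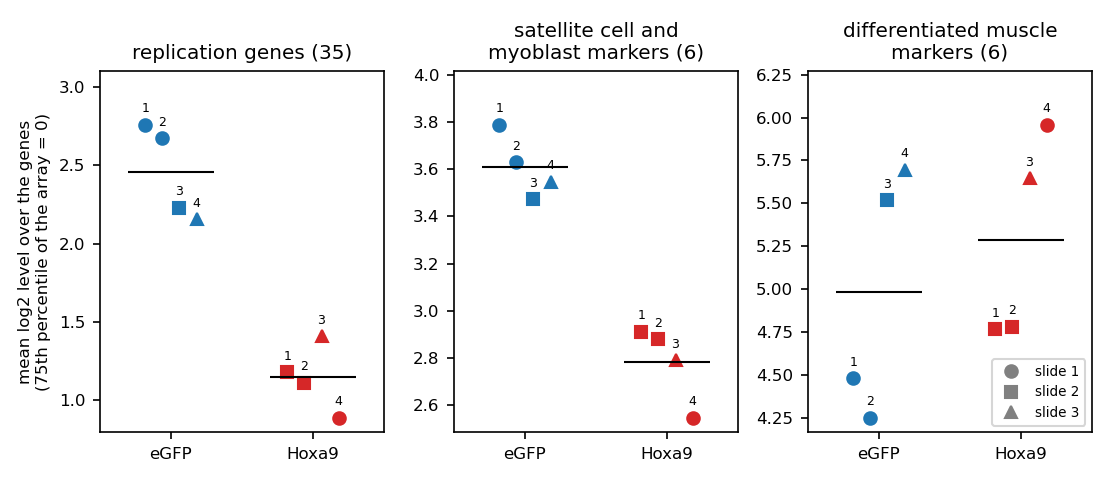
Mean log2 level per array, relative to the array's 75th percentile, of the 35 replication genes, the 6 satellite cell and myoblast markers and the 6 differentiated muscle markers, with the replicate number above each point, the marker shape for the slide and a line at the group mean. The replication genes lie from 2.16 to 2.76 on the eGFP arrays and from 0.89 to 1.41 on the Hoxa9 arrays, while the differentiated muscle markers overlap between the groups.

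Other genes of the same pathways, 73 listed by role and 72 of them measured, were also mostly lower. Lower calls numbered 38 (52.8%, against 7.42% of all genes), higher calls 0 and the rest 34, with a median of -0.75. This wider list too was chosen with earlier results of these data known. Without eGFP array 2, 24 were called lower, and with the slide as a block 28. The share was highest for fork and checkpoint mediators, where 6 of 8 fell (median -1.37), and for chromatin factors that act behind the fork, where 4 of 6 fell (median -1.30). Examples are Dscc1, which helps load the clamp for cohesion (-1.78), Atad5, which unloads the clamp (-1.40), Uhrf1, which guides maintenance methylation (-1.88), and the histone chaperone Nasp (-1.6). Among origin recognition and firing genes 9 of 15 fell, with Ticrr, which fires licensed origins, at -1.95 and Gmnn, the inhibitor of Cdt1, at -1.41. Of the remaining polymerase, clamp loader and RPA subunits 4 of 9 fell, Rpa2 and Rpa3 by 0.97 each, and of the primer removal and topoisomerase genes 2 of 5, Dna2 (-1.37) and Top1 (-0.64). Rpa3 was not called without eGFP array 2 (-0.88, adjusted p = 0.0577), and the Top1 call was lost on leaving out any of 6 arrays, all but eGFP array 2 and Hoxa9 array 3 (adjusted p from 0.0543 to 0.089).

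In base synthesis 2 of 6 pyrimidine genes fell, Ctps1 (-0.77) and Umps (-0.79), with a median of -0.54. Of 11 purine genes 5 fell, among them Prps2 (-1.09), which makes the ribose phosphate donor, and Adss2 (-0.94), on the branch to AMP, with a median of -0.77. Both calls were lost with the slide as a block, with adjusted p of 0.0582 for Ctps1 and 0.087 for Umps. The Ctps1 call was also lost without eGFP array 2 (-0.72, adjusted p = 0.0562), and the Umps call was lost on leaving out any of 6 arrays, all but Hoxa9 arrays 2 and 4 (adjusted p from 0.0613 to 0.107). In the thymidylate and deoxynucleotide pool 6 of 12 fell. Dut, which keeps uracil out of DNA, read 3.32, 3.197, 3.15 and 3.08 on the eGFP arrays and 1.30, 1.44, 1.54 and 1.29 on the Hoxa9 arrays, 3.46-fold lower (difference -1.79, SE 0.13, adjusted p = 0.00011, limma). Nearest to 0 were Cmpk1 (-0.05), Ctps2 (-0.05), Samhd1 (0.11), Gart (0.12) and Impdh1 (-0.16). The Gart value has a wide SE of 0.80, since eGFP array 1 read -2.11 where the other 7 arrays read 0.26 to 1.85, and its other probe differed by -0.66 (adjusted p = 0.0469, limma).

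Several enzymes of the deoxynucleotide pool have a partner that serves mitochondria or cells outside S phase, and these partners, singled out after their values were seen, differed by values above 0. Rrm2b, the small reductase subunit used outside S phase, read -2.80, -3.26, -3.28 and -3.40 on the eGFP arrays and -2.80, -2.89, -2.92 and -2.17 on the Hoxa9 arrays. The groups overlapped (difference 0.49, SE 0.22, adjusted p = 0.194, limma). Tk2, the mitochondrial thymidine kinase, differed by 0.16 (SE 0.27, adjusted p = 0.721, limma), beside -1.15 for Tk1. Dguok, the mitochondrial deoxyguanosine kinase, read 1.29, 1.20, 1.24 and 1.503 against 1.72, 2.004, 1.65 and 1.70. Every Hoxa9 array was above every eGFP array, but the gene was not called (0.46, SE 0.14, adjusted p = 0.0668, limma). Dck, the deoxycytidine kinase, read -0.68, -0.86, -1.13 and -1.39 against -2.82, -2.32, -2.44 and -3.12 and fell by 1.66 (SE 0.24, adjusted p = 0.00222, limma). Besides these, Samhd1 and Gart, the only gene of the wider list above 0 was Pold4, the smallest subunit of polymerase delta (0.38, SE 0.16, adjusted p = 0.159, limma). Whether these differences differ from those of their partners was not tested.

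**Figure D5:**
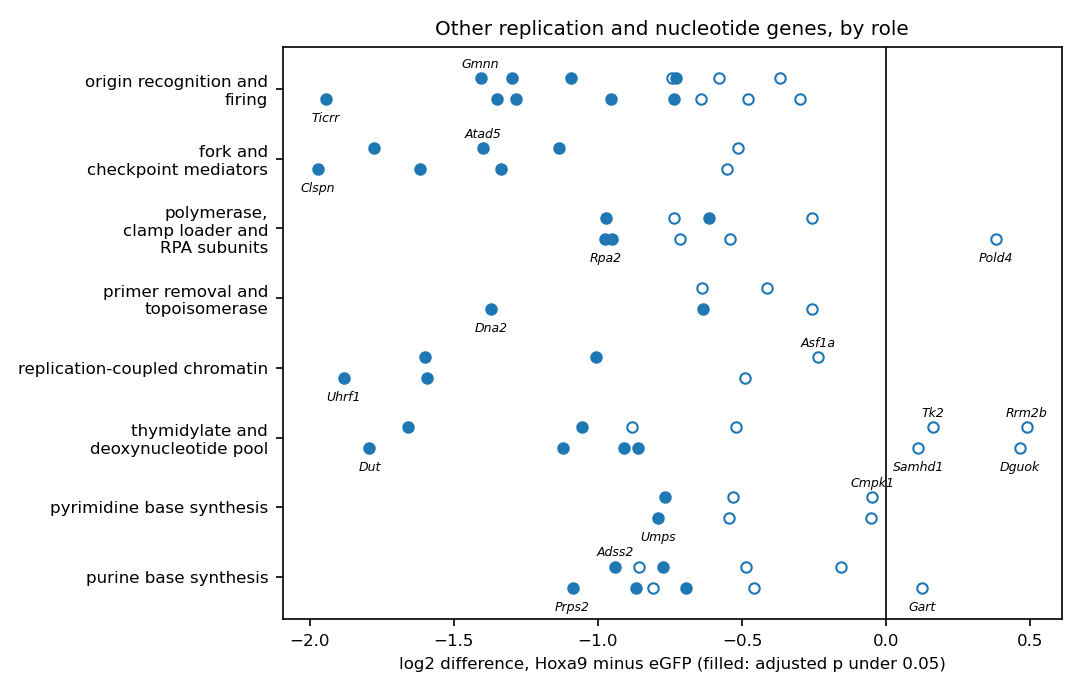
Difference in log2 level, Hoxa9 minus eGFP, of the 72 other replication and nucleotide genes by role, with filled points called lower and open points not called. Points run from -1.97 for Clspn to 0.49 for Rrm2b, and 6 of 72 lie right of 0, 4 of them in the thymidylate and deoxynucleotide pool.

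Promoter sequences of 8 members, 6 of them called lower and Gins3 and Rfc3 not, are shown because E2F factors are known to bind letters of the kind TTTCCCGC, TTTGGCGC, TTTCGCGC and TTTGCCGC ahead of S phase genes. The RefSeq promoter table (GRCm38.p6, 250 bases before to 50 after each start) held 29 of the 36 members and 33 promoters. Mcm4, Gins1, Gins2, Gins4, Prim2, Pole and Rfc2 were not matched. Any of the 4 strings, on either strand and with overlapping matches counted apart, was found in the promoters of 13 of the 29 members (44.8%), against 12 of 63 genes of the wider list (19.0%) and 3.29% of protein-coding genes. Counted by promoter, it was 39.4% of the members' and 2.26% of all 32851 in the table. CCAAT on either strand, the letters of the NF-Y box, was in 54.5% of the members' promoters and 37.4% of all and its letters can share end bases with the others. The members' promoters had a median of 21 CpG pairs, against 23 for the wider list and 13 for protein-coding genes, and all 4 E2F-type strings hold a CG. The 80 bases around the matches are given for the 8 members with a match ahead of the start, 5′ to 3′ on the gene's strand, with the matches in capitals. They lie at chr11:98907977-98908056 (Cdc6, plus strand), chr4:108579374-108579453 (Orc1, plus), chr8:75109322-75109401 (Mcm5, plus), chr1:128359741-128359820 (Mcm6, minus), chr5:138172005-138172084 (Mcm7, minus), chr8:95633479-95633558 (Gins3, plus), chrX:93632250-93632329 (Pola1, minus) and chr5:151651209-151651288 (Rfc3, minus), in GRCm38.p6.
Cdc6: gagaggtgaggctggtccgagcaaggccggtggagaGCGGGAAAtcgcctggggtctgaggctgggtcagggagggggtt
Orc1: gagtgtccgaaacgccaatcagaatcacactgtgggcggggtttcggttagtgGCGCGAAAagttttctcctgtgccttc
Mcm5: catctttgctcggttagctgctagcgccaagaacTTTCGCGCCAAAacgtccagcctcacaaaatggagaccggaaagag
Mcm6: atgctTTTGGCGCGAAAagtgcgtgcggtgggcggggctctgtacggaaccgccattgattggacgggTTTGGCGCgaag
Mcm7: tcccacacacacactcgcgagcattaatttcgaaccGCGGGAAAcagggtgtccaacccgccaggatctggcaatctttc
Gins3: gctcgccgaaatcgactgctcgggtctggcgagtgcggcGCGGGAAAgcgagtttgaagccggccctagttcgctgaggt
Pola1: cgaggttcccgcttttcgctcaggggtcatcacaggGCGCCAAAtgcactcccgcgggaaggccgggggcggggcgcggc
Rfc3: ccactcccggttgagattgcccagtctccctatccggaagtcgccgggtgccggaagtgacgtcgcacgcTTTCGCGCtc

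Mcm6 held 3 matches ahead of its start, a pair with shared letters and another nearer the gene, and Mcm5 held a pair with shared letters. Cdt1, Mcm3, Lig1, Pold1 and Pole2 held matches only at or after the start. The 13 members that hold them had a median difference of -1.53 and ran from -2.14 (Cdc6) to -0.50 (Gins3), and the 15 measured members with a promoter that lacks them had a median of -1.33 and ran from -1.76 to -0.57. Among the members with matches, Gins3, Pold1 and Rfc3 were not called lower, and among those without, Cdc45, Pola2 and Tyms were not. Whether these sets differ was not tested. A match of letters is a description of the sequence only.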

How the data were processed

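Total RNA of 8 cultured satellite cell samples was labelled with Cy3 (0.1 ug each) and read on 1-colour Agilent mouse arrays. The intensity values are the authors' deposited scanner output, made by Agilent Feature Extraction 10.7.3.1, per the submitters' processing notes. Per the file headers, background subtraction and spatial detrending were applied within each array, with no scaling between arrays. The other deposited table was read as a score, since 86.1% to 87.3% of the authors' cells had lost their decimal point. Once the point was put back, 1 constant for each array brought at least 99.9% of its values to within 0.05 of log2 scanner signal. Its column medians were -3.36, -3.23, -3.11 and -3.08 (eGFP) and -3.24, -3.26, -3.22 and -2.95 (Hoxa9), so only the constants stay unknown, and it served as an alternative. Since scaling each array takes out such a constant, this alternative had to repeat the main fit closely. Probe positions are mm9 per the file headers, and exons were not annotated here.

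After log2, the 75th percentile of the non-control probes (514 to 779 signal units) was subtracted from each array, with repeated spots averaged. Of 55681 probes, 180 with a spot marked as an outlier were left out, and 40773 well above background on at least 4 of 8 arrays were kept. A gene was its probe with the highest mean, which gave 27110 genes. A RefSeq gene table of another assembly updated 1704 names among 27536 matched probes. The test was limma's (version 3.58.1, R 4.3.3), by lmFit and eBayes with a group term alone, two-sided, at 0.05 after Benjamini-Hochberg adjustment over all genes, and was tested on simulated data.

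The 36 members, the wider and marker lists, and the promoter search were chosen with earlier results of these data known. Full values are given for the member of lowest and of highest adjusted p in each role, for members not called, not kept or with probes of opposite sign, and for Cdc6, Rrm2, Dut, Rrm2b, Dguok and Dck, which with Tk2 and Pold4 were added after their values were seen. From the wider list the named genes are up to 2 of lowest adjusted p per role and the 5 nearest 0. Outside this rule, Pole3 and Pole4 are named as subunits of polymerase epsilon, Clspn as the lowest value and Atic for its probe called higher. A further gene that the rule takes is counted in its list but not reported here.

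Arrays with the same number were taken as pairs, since their residuals correlated over genes at 0.143, 0.228, 0.129 and 0.186, all above the limit of 0.1. The unlike pairs eGFP 4 with Hoxa9 3 (0.188) and eGFP 3 with Hoxa9 4 (0.137) also passed it. The number and the slide served as blocks in alternatives, beside quantile, median and normexp scaling (offset 50), other filters on dim probes, averaged probes, the deposited table, an intensity trend, array weights, a minimum of 2-fold, and each array left out in turn.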

Additional observations from a re-analysis of the deposited data

Results flagged for a closer look

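The groups of 4 arrays of the members and of the genes named from the wider list, without Pole3, Pole4, Clspn and Atic, were 120 in all. Among these, 7 had an array far from the other 3, by Dixon's criterion at the 95% level. Chance alone gives about 1 in 20 such groups. Tyms was lowest on eGFP array 1 at -0.67. Hoxa9 array 3 was the highest of its group for Orc1 (-3.72), Gins2 (-0.088) and Pole (1.72). On Hoxa9 array 4, Pold1 (1.45) and Ctps2 (1.94) were lowest and Rrm2b (-2.17) was highest. Hoxa9 array 3 was the highest of its group in 24 of the 35 members and Hoxa9 array 4 the lowest in 25.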

How the results depend on the processing

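Of the 28 members called lower, 22 were called lower in each of 20 alternative fits, and the calls lost were those of Rrm2 (12 fits), Rfc2 (10), Gins2 (7), Pole2 (3), Rfc4 (3) and Tk1 (1). Of the 7 not called, Gins4 and Tyms were called in none of them. Among the 20 fits, that to the deposited table had to repeat the main fit closely. Members called lower numbered 23 to 31 on leaving out 1 array and 23 to 33 otherwise, and members called higher 0 throughout. With the replicate block 28 members (25 of them the same genes), 40 wider genes and 2135 genes in all were called lower and 2303 higher. The block also lost the calls of Gins2, Rfc2 and Rrm2 and gained those of Pola2, Pold1 and Rfc3. The slide block gave 1403 genes lower and 1678 higher. The median difference of the members was -1.51 to -1.28 on leaving out 1 array and -1.89, -1.13 and -0.86 within slides 1, 2 and 3. The wider median was -0.86 to -0.69 on leaving out 1 array and -1.24 and -0.43 within slides 1 and 3. On leaving out 1 array, 1293 to 1889 genes were lower, 1580 to 1906 higher and 24 to 35 wider genes lower, with 1293 and 24 from the fit without eGFP array 2. A 2-fold minimum left 1125 genes lower, 1357 higher and 22 wider genes lower. One wider entry was called higher under 4 settings, Dguok with quantile scaling (0.50, adjusted p = 0.0421), array weights (0.43, 0.0469) and an intensity trend with robust prior (0.46, 0.0393), and an Atic probe when probes were tested singly (0.89, 0.00532). Each count was 1, and the causes were not tested. By the brighter probe used for the gene, Atic differed by -0.86 (adjusted p = 0.19, limma). Scaling moved the median of all genes by under 0.1 (-0.10 to -0.03). The array weight fit stopped short of its tolerance. Having 4 arrays a group limits what could be called. Members with a main adjusted p from 0.00852 (Tk1, limma) to 0.0863 (Gins3, limma) change sides with the setting, Rrm2 most often among those called.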
